A study of Mus musculus with 8 samples.

Results

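The 9 genes Plau, Plat, Plaur, Serpine2, Serpinb2, F3, Thbd, Anxa2 and S100a10 encode plasminogen activators, their receptor, serpin inhibitors, tissue factor, thrombomodulin and a plasminogen-binding complex. They were found by gene symbol among the 54146 genes of each library, and all 9 were present in all 8 libraries. The libraries hold messenger RNA of primary mouse cortical astrocytes grown from C57BL/6 pups at postnatal day 2 to 5, with brains pooled in a flask. The mixed glia were infected with lentivirus carrying either a Gstm1 shRNA (GSTM1 KD) or a non-silencing shRNA (control KD), selected with puromycin and depleted of CD11b-positive cells, so both kinds of culture carried a vector and had been through selection. Each was left without stimulation (the basal level) or stimulated for 6 h (TNF-α, 50 ng/ml), and each of the 4 groups has 2 libraries. All cells of a culture were sequenced together, so fewer cells of a type and less RNA per cell cannot be told apart.

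Urokinase (Plau) and tissue plasminogen activator (Plat) cleave plasminogen to plasmin, the protease that dissolves fibrin and degrades extracellular matrix, and serpins trap the activators in inactive complexes. Tissue factor (F3) starts coagulation at the cell surface, and astrocytes are known as a rich source of it in the brain, while thrombomodulin (Thbd) turns thrombin towards the activation of the anticoagulant protein C. TNF-α is known to induce several of these genes in other cell types.

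Sequence before the transcription start is shown for 4 members, since 3 of them were lower in GSTM1 KD astrocytes after TNF-α and the fourth, Anxa2, did not pass the test. Promoter entries of RefSeq (GRCm38.p6) matched 5 of the 9 members by symbol: Serpine2, Serpinb2, F3, Plaur and Anxa2. Serpine2 did not pass the test either, and its stretch is not shown. The 250 bases before each start were searched on both strands for the AP-1 motif TGACTCA, the cyclic AMP response motif TGACGTCA and the GC box GGGCGG. The NF-kB motif was searched only as GGG[AG]NN[CT][CT]CC, where N is any base and brackets hold the bases allowed at a position. These motifs were chosen after the promoters had been seen and searched with others, and the looser spelling TGANTCA was set aside after it was seen to match Serpinb2 as well. Capitals mark TGACTCA on either strand (it reads TGAGTCA from the other strand), and bases that lie in an exon of a protein-coding gene are left out. The stretches are chr3:121723287-121723536 for F3, chr7:24462233-24462482 for Plaur, chr9:69453433-69453619 for Anxa2 and chr1:107511173-107511422 for Serpinb2, all on the plus strand and all 5′ to 3′.
F3: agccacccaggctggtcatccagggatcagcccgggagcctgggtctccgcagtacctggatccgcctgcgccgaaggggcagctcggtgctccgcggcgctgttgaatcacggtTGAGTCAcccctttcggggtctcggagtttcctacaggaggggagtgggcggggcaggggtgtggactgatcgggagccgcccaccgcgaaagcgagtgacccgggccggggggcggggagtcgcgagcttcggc
Plaur: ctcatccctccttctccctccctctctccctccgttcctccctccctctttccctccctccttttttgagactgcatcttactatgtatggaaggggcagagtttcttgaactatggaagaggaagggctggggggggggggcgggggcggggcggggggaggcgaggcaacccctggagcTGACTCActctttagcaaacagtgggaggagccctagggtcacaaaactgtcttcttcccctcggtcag
Anxa2: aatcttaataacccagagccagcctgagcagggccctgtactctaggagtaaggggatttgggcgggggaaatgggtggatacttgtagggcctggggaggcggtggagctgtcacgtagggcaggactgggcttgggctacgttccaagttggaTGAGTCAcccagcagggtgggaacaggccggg
Serpinb2: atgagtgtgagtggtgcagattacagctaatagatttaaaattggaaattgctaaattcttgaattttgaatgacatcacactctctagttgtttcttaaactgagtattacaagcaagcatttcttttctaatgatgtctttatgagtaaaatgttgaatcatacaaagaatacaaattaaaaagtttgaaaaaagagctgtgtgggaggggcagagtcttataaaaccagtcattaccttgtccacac
The AP-1 motif began 135 bases before the start of F3, 69 bases before that of Plaur and 95 bases before that of Anxa2. These distances count from the start of the promoter entry, and for Anxa2 63 exon bases before that start are not in the stretch shown. The AP-1 motif was in 4.46% of the 32851 promoters of the table and in at least 1 promoter of 5.16% of 27025 genes. With any base in the middle (TGANTCA), Serpinb2 had a match, TGAATCA, 94 bases before the start of the entry shown. From the start of its other promoter entry the same match lies 181 bases before. F3 had a further match, also TGAATCA, 146 bases before its start, and 6.75% of promoters held TGANTCA. The window of Serpine2, the member left out of the display, held neither TGACTCA nor TGANTCA, so every stretch shown has such a match. The letters of the cyclic AMP response motif and of the NF-kB motif were not in these windows, whereas they were in 1.55% and 7.25% of all promoters. A site with another spelling would be missed by this search, so its absence from a window is not shown. The GC box was in the windows of F3, Plaur, Anxa2 and Serpine2 and in 32.7% of all promoters.

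Library totals ran from 17349682 to 34434615 expected counts. Gstm1, the targeted gene, was at 230.4 and 377 CPM (counts adjusted for library size) in the basal control KD libraries and at 29 and 31.3 CPM in the basal GSTM1 KD libraries, and after TNF-α at 209 and 390.4 CPM against 24.3 and 23.3 CPM, as the labels say. Replicate 1 of control KD stood apart in astrocyte markers in both states, with Gfap at 706 TPM against 2206 TPM in replicate 2 at the basal level and 651 against 2016 TPM after TNF-α. TPM is a level that also allows for transcript length. Without that replicate, 4 members passed the test without stimulation and 5 with TNF-α, where 3 and 5 did so with all libraries, and the share of all genes called was 14.3% and 18.3% without it and 10.2% and 16.2% with it. With 2 libraries against 2 the smallest two-sided exact permutation p is 0.333, so p-values are from edgeR's quasi-likelihood test fitted across all genes, adjusted by Benjamini-Hochberg and called at 0.05. They measure the spread between 2 libraries of a group. The paper calls these biological replicates, and the labels do not say what separates them.

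Per transcript length the members spanned a wide range of levels. In basal control KD astrocytes Anxa2 had the highest mean at 1049.8 ± 29.5 TPM (SD, n = 2), followed by F3 at 647 ± 4.93, S100a10 at 579 ± 9.14, Serpine2 at 204 ± 34.5 and Plat at 101 ± 27.5 TPM. Plaur at 23.6 ± 7.08, Serpinb2 at 11.6 ± 4.12, Plau at 9.32 ± 0.41 and Thbd at 4.41 ± 0.354 TPM formed the lower end. Neighbours in this order did not overlap between libraries, except Serpinb2 and Plau. In GSTM1 KD astrocytes S100a10, at 487 ± 35.1 TPM, stood above F3, at 334 ± 31.7 TPM, and Serpinb2 was the lowest member at 1.6 ± 1.02 TPM, overlapping Thbd. After TNF-α Plau moved above Plaur in control KD astrocytes (44.8 ± 5.59 against 33.3 ± 4.7 TPM), S100a10 and F3 overlapped, and in GSTM1 KD astrocytes Plau overlapped Plaur and Serpinb2 overlapped Thbd.

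**Figure D1:**
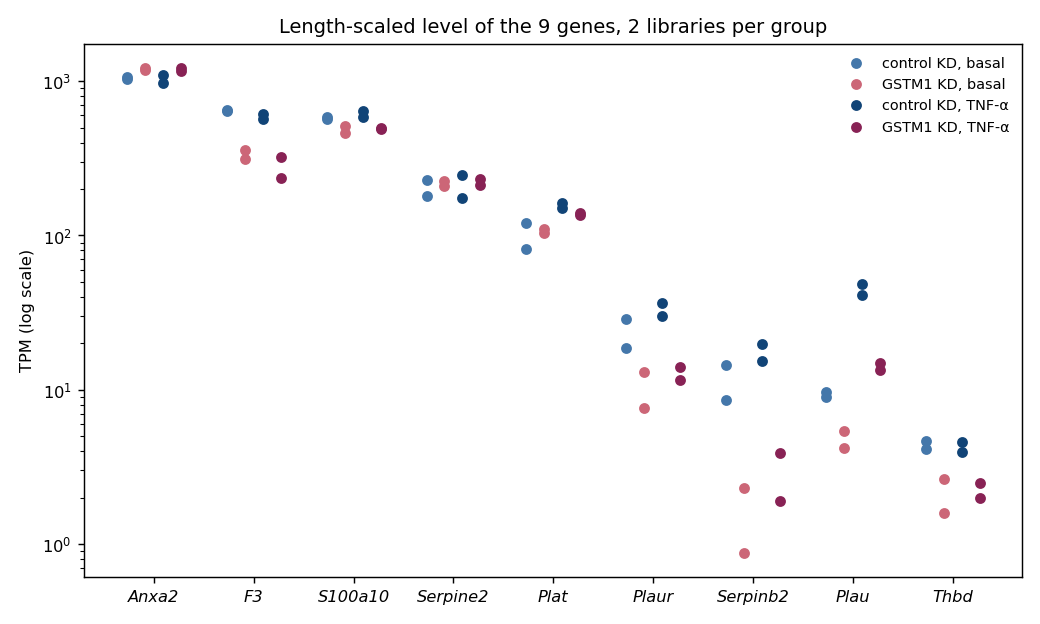
Level of each gene in TPM (log axis) in the 8 libraries, 2 points per group, with genes ordered by their mean in basal control KD astrocytes. Anxa2 is near 1049.8 TPM and Thbd near 4.41 TPM in that group, and the GSTM1 KD points of F3, Plaur, Serpinb2, Plau and Thbd lie below the control KD points of the same state.

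At the basal level, Plau, Serpinb2 and F3 were lower in GSTM1 KD than in control KD astrocytes, and none of the 9 was called higher. After TNF-α, Plau, Plaur, Serpinb2, F3 and Thbd were lower, again with none higher. These are 3 of 9 and 5 of 9 members, where 5.62% of the 14899 genes tested at the basal level and 8.92% of the 14593 tested after TNF-α were called lower, and 4.6% and 7.26% were called higher. All 9 members passed the filter on low counts. They were chosen with earlier results of these data known, so the shares and medians given here describe them and are no test of the family. The median log2 fold change of the 9 was -1.02 in basal and -1.0 in stimulated astrocytes, against -0.00203 and -0.0106 over all genes tested. At an unadjusted p under 0.05 the 6 members Plau, Plaur, Serpinb2, F3, Thbd and S100a10 were lower in each state and none was higher, where 31.6% of all genes tested without stimulation and 36.2% with TNF-α were at that p in either direction.

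Plau (chr14:20836660-20843385 of GRCm38, plus strand), the activator that acts at the cell surface, was at 11.2 and 11.8 CPM in basal control KD and at 4.93 and 6.36 CPM in basal GSTM1 KD libraries. After TNF-α it was at 60.5 and 51.2 CPM in control KD and at 16.5 and 17.9 CPM in GSTM1 KD libraries. Both GSTM1 KD libraries were below both control KD libraries in each state. Plau differed by -1.03 on the log2 scale (SE 0.209, adjusted p = 0.0402, edgeR) without stimulation and by -1.73 (SE 0.138, adjusted p = 0.00981, edgeR) with it.

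Plat (chr8:22757727-22782844, plus strand), the other activator and the more abundant of the pair, was not called in either state. Its basal libraries were at 110.0 and 159.8 CPM in control KD and at 133 and 142 CPM in GSTM1 KD, so the groups overlapped. After TNF-α it was at 203 and 223 CPM in control KD and 187 and 175 CPM in GSTM1 KD. The log2 fold change was 0.03 (95% interval -0.44 to 0.49) at the basal level and -0.26 (-0.52 to 0.0, adjusted p = 0.138, edgeR) after TNF-α. The TPM ratio of Plat to Plau was 9.04 and 12.5 in basal control KD libraries and 24.8 and 20.5 in basal GSTM1 KD libraries, and after TNF-α it was 3.09 and 3.99 against 10.4 and 9.

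Plaur (chr7:24462484-24475968, plus strand), the urokinase receptor, was at 20.5 and 13.2 CPM in basal control KD and 5.23 and 8.41 CPM in basal GSTM1 KD libraries. After TNF-α it was at 26.1 and 21.2 against 8.26 and 9.82 CPM. The groups did not overlap in either state. The basal difference of -1.31 (SE 0.322) missed the threshold (adjusted p = 0.06, edgeR), and the difference of -1.42 (SE 0.185) after TNF-α passed it (adjusted p = 0.0144, edgeR). With replicate number as a block in the fit, the basal difference passed too (adjusted p = 0.00167, edgeR), where 31.6% of all genes were called. The replicates are not said to be paired.

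Serpinb2 (chr1:107511423-107535478, plus strand), plasminogen activator inhibitor type 2, showed the largest difference of the 9 in each state. It was at 14.9 and 8.75 CPM in basal control KD and 2.27 and 0.851 CPM in basal GSTM1 KD libraries, the latter from 53 and 17 counts. After TNF-α it was at 20.3 and 15.9 against 3.97 and 1.9 CPM. Its log2 fold change was -2.9 (SE 0.499, adjusted p = 0.0292, edgeR) without stimulation and -2.63 (SE 0.364, adjusted p = 0.0161, edgeR) after TNF-α. Serpinb10, annotated as a polymorphic pseudogene on the same strand, shares exon bases with it and had at most 3 counts in any library. The call held with both counts summed. Without replicate 1 or replicate 2 of GSTM1 KD the difference was -3.79 or -2.39 at the basal level (adjusted p = 0.0833 and 0.12, edgeR) and -3.27 or -2.21 with TNF-α (adjusted p = 0.0648 and 0.0528, edgeR).

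Serpine2 (chr1:79794197-79861180, minus strand), protease nexin 1, an inhibitor of thrombin and urokinase, did not differ beyond its spread. Basal libraries were at 207 and 261 CPM in control KD and 231 and 244 CPM in GSTM1 KD, and after TNF-α at 204 and 289 against 243 and 259.8 CPM. On the log2 scale it differed by 0.02 (95% interval -0.34 to 0.38) at the basal level and 0.01 (-0.42 to 0.44) after TNF-α.

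F3 (chr3:121723537-121735048, plus strand), tissue factor, was the most abundant member to change. It was at 618 and 616 CPM in basal control KD and 325 and 283 CPM in basal GSTM1 KD libraries, and after TNF-α at 591 and 552 against 303 and 220.2 CPM. F3 differed on the log2 scale by -1.02 (SE 0.126, adjusted p = 0.0192, edgeR) at the basal level and -1.15 (SE 0.178, adjusted p = 0.019, edgeR) after TNF-α. Thbd (chr2:148404466-148408188, minus strand) was at 8.51 and 9.46 CPM in basal control KD and 3.09 and 5.16 CPM in basal GSTM1 KD libraries, and after TNF-α at 8.09 and 9.62 against 4.06 and 4.94 CPM. Its groups did not overlap in either state. The basal difference of -1.13 (SE 0.293, adjusted p = 0.0665, edgeR) missed the threshold. It passed with the replicate block (adjusted p = 0.00225, edgeR), where 31.6% of all genes were called. The difference of -1.0 (SE 0.227, adjusted p = 0.0415, edgeR) after TNF-α passed it, and missed it with effective length offsets (-0.98, adjusted p = 0.0513, edgeR). Thbd is also an endothelial gene, and the 7 endothelial markers summed to between 1.72 and 3.31 TPM in every library, with Cldn5 at 0 counts throughout. Within that list Cdh5 was at 2.79 and 1.64 TPM in basal control KD and 1.06 and 0.4 TPM in basal GSTM1 KD libraries (log2 fold change -1.65, adjusted p = 0.0954, edgeR), and differed by -1.41 after TNF-α (adjusted p = 0.121, edgeR). Kdr, the other endothelial marker that could be tested, was at 0.18 and 0.37 against 0.54 and 0.93 TPM (1.39, adjusted p = 0.124, edgeR) and differed by 1.25 after TNF-α (adjusted p = 0.0644, edgeR). The part of these markers in the difference of Thbd was not tested.

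Anxa2 (chr9:69453620-69491795, plus strand) and S100a10 (chr3:93555080-93564643, plus strand) form a complex that binds plasminogen at the cell surface. Anxa2 was at 724 and 741 CPM in basal control KD and 797 and 811 CPM in basal GSTM1 KD libraries, and at 685 and 775 against 811 and 822 CPM after TNF-α. S100a10 was at 158 and 149 against 118 and 127 CPM at the basal level and at 169.5 and 154 against 128 and 129 CPM after TNF-α. The Anxa2 libraries of GSTM1 KD were above and the S100a10 libraries below those of control KD in each state, and neither gene passed the test in the fit reported. With the replicate block S100a10 was called lower at the basal level (adjusted p = 0.0325, edgeR) and after TNF-α (adjusted p = 0.031, edgeR). That fit called 31.6% and 29.5% of all genes, and the replicates are not said to be paired. The log2 fold change of Anxa2 was 0.13 (95% interval -0.16 to 0.42) and 0.14 (-0.16 to 0.43), and that of S100a10 was -0.33 (adjusted p = 0.107, edgeR) and -0.36 (adjusted p = 0.0654, edgeR). Anxa2 shares exon sequence with the antisense gene Gm16144, and whether the counting used strand is not given in the sources used here.

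**Figure D2:**
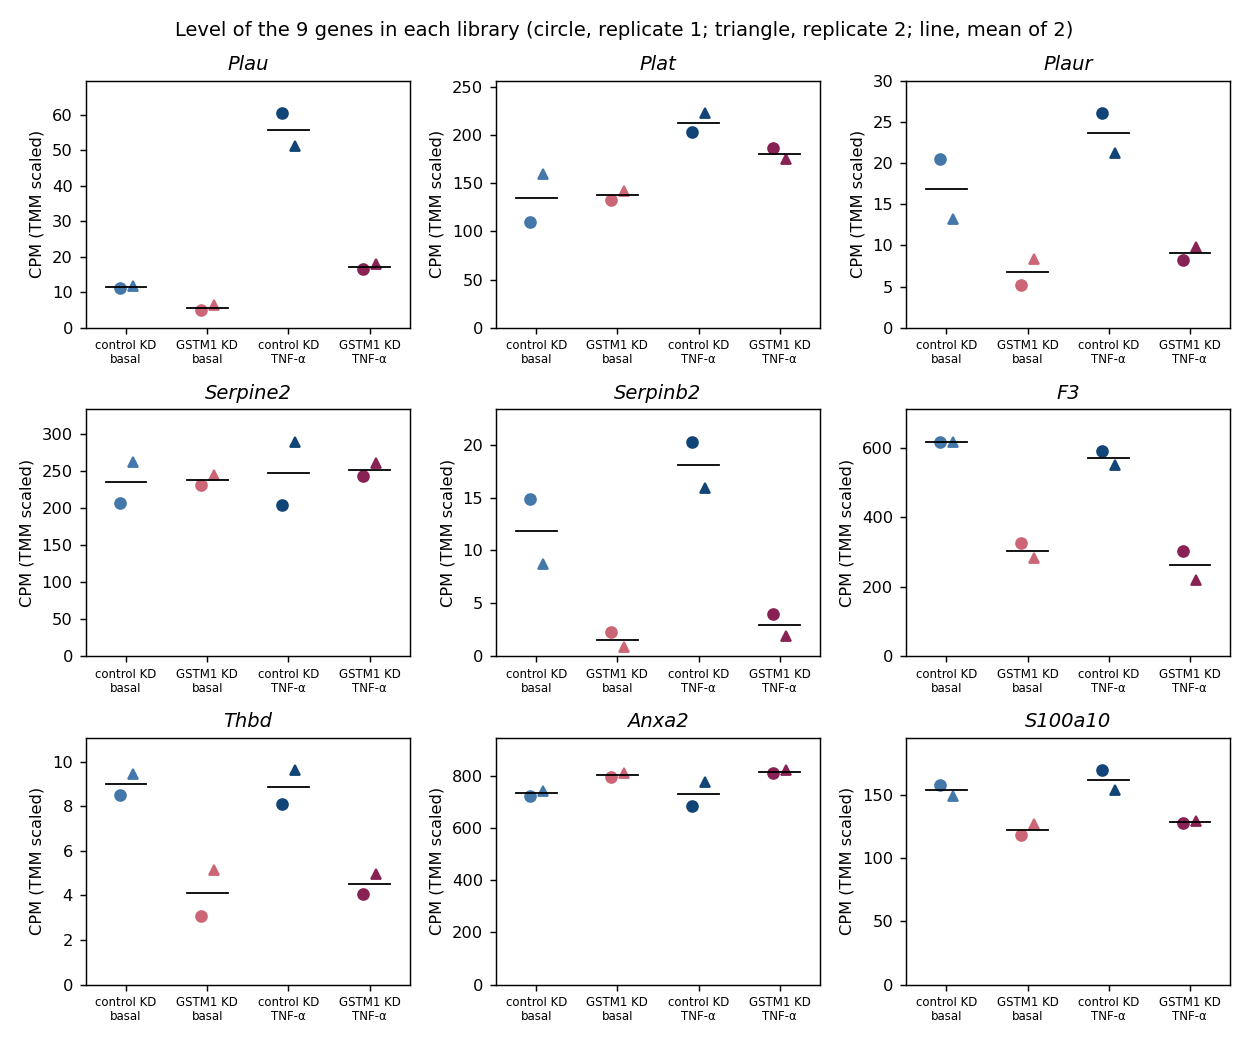
CPM of each gene in the 8 libraries, with a circle for replicate 1, a triangle for replicate 2 and a line at the mean of 2. F3 falls from 617 CPM on average in basal control KD to 304 CPM in basal GSTM1 KD astrocytes, while Serpine2 stays between 204 and 289 CPM in all libraries.

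**Figure D3:**
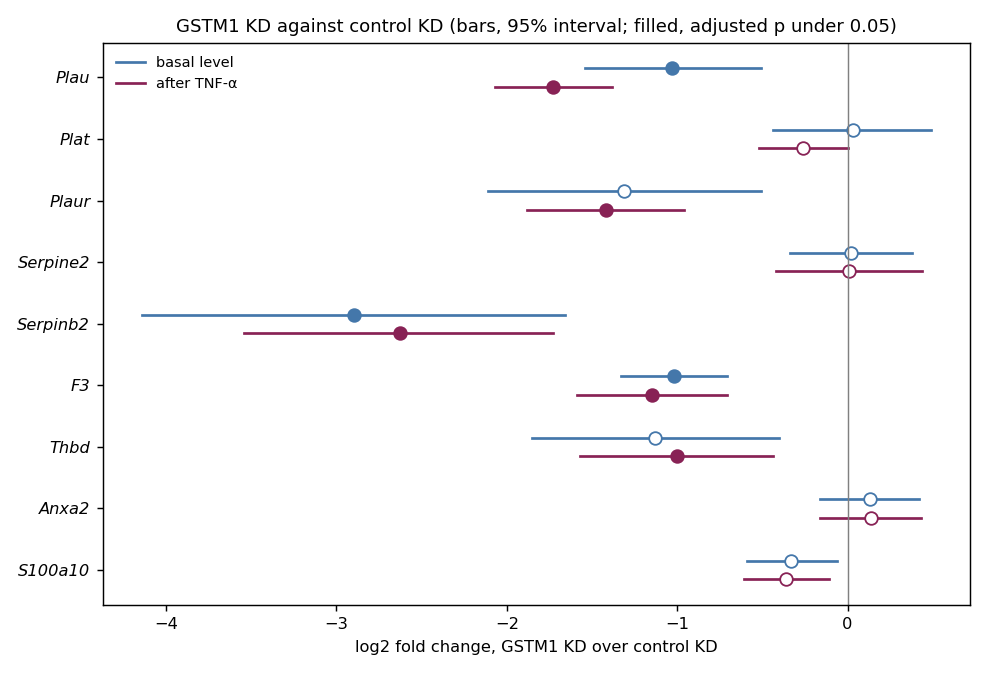
Log2 fold change of GSTM1 KD over control KD with 95% intervals in both states, filled where the adjusted p was under 0.05. Serpinb2 lies farthest from 0, at -2.9 and -2.63, and the intervals of Plat and Serpine2 at the basal level span 0.

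These calls rest on few libraries. Leaving out replicate 1 or replicate 2 of basal GSTM1 KD left 0 members called at the basal level, and leaving out replicate 1 or replicate 2 of TNF-α-stimulated GSTM1 KD left 0 and 1 after TNF-α, each with 1 library in that group, while leaving out replicate 2 of control KD gave 6 in each state. The calls over all genes moved with these counts, to 1 and 3 genes at the basal level and 0 and 94 after TNF-α without a GSTM1 KD library, and to 5256 (34.2%) and 5028 (32.9%) without replicate 2 of control KD. DESeq2 called 5 members lower in each state, where 10.1% of all genes it tested were called lower without stimulation and 11.1% with TNF-α. The sum of the 7 fibroblast and mural markers moved with the knockdown, from 3666 to 4031 TPM in basal control KD and 1838 to 2189 TPM in basal GSTM1 KD libraries, and from 3099.9 to 3171 against 1611 to 1876 TPM after TNF-α. Most of that sum was Acta2, lower by 1.02 and 0.93 on the log2 scale in the 2 states, and Col1a2 was also lower (-1.13, adjusted p = 0.0352, and -0.99, adjusted p = 0.025, edgeR). Pdgfrb was higher in GSTM1 KD than in control KD astrocytes after TNF-α (0.81, adjusted p = 0.0337, edgeR). Col1a1 was at 20.7 to 64.4 TPM and not called, and Dcn, Lum and Rgs5 were at or below 2.4 TPM. The 9 astrocyte markers summed to 1583 and 3787 TPM in basal control KD and 3649.9 and 5724 TPM in basal GSTM1 KD libraries. Of these 9, S100b was lower in both states, and of 6 tested oligodendrocyte lineage markers Olig2 was lower in both states and Olig1 after TNF-α. The part of these markers in the members' differences was not tested.

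After TNF-α against the basal level, Plau was the only member called by edgeR with the filter on low counts, all 8 libraries and no replicate block, and it rose in both kinds of astrocytes. Over all genes, 2.1% of 15332 were called higher and 0.528% lower in control KD astrocytes, and 2.35% and 0.294% in GSTM1 KD astrocytes. Plau rose by 2.28 on the log2 scale (SE 0.152, adjusted p = 0.000769, edgeR) in control KD and by 1.61 (SE 0.16, adjusted p = 0.00326, edgeR) in GSTM1 KD astrocytes, that is 4.87-fold and 3.05-fold. Both TNF-α libraries were above both basal libraries in each. The TPM ratio of Plau to Plaur was 0.316 and 0.518 in basal control KD libraries and 1.33 and 1.36 after TNF-α, and in GSTM1 KD libraries 0.55 and 0.416 against 1.16 and 1.07.

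Plat, with the next smallest p in each, had a difference of 0.66 (95% interval 0.27 to 1.06, adjusted p = 0.112, edgeR) in control KD and 0.4 (0.0 to 0.79, adjusted p = 0.449, edgeR) in GSTM1 KD astrocytes. DESeq2 called Plat in control KD astrocytes (0.67, adjusted p = 0.0136). Plaur had values of 0.49 and 0.41 and Serpinb2 of 0.61 and 0.9, with intervals that include 0. Leaving out a library moved the Serpinb2 value in GSTM1 KD astrocytes to between 0.25 and 1.8. F3, at -0.11 and -0.22, Thbd, Serpine2, Anxa2 and S100a10 lay between -0.22 and 0.13. The differences of the responses, GSTM1 KD minus control KD, passed the test for 0 of the 15332 genes, a share of 0%, with 295 genes at an unadjusted p under 0.05 and 27 called by DESeq2. For Plau this difference was -0.67 (SE 0.216, unadjusted p = 0.0164, adjusted p = 1, edgeR), so its smaller rise in GSTM1 KD astrocytes was not called.

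**Figure D4:**
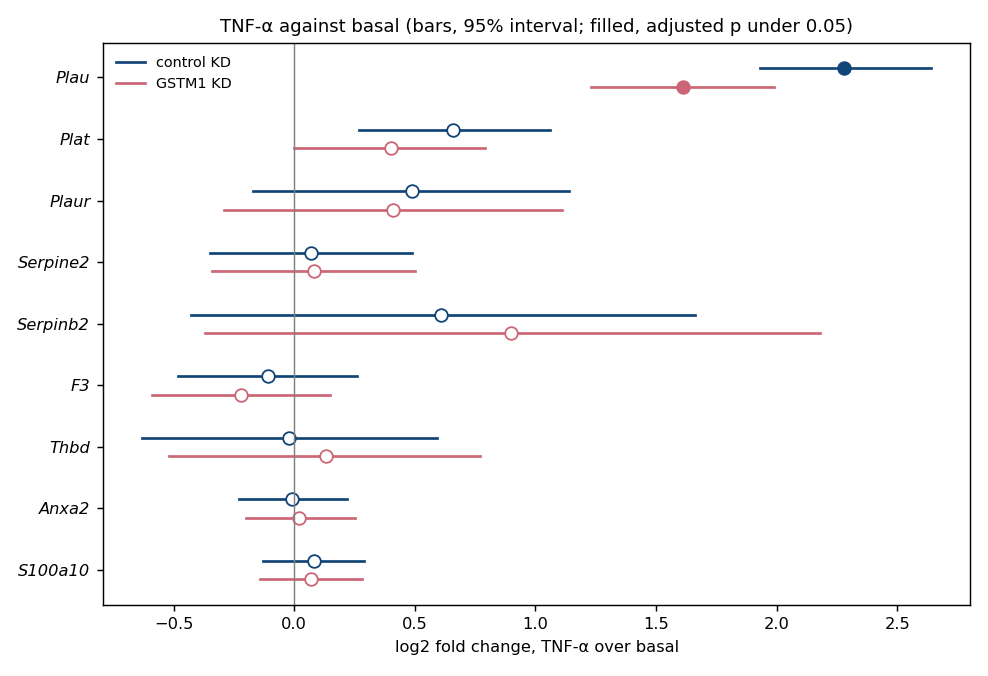
Log2 fold change of TNF-α over the basal level in control KD and GSTM1 KD astrocytes with 95% intervals, filled where the adjusted p was under 0.05. Plau is at 2.28 and 1.61, and the other 8 genes did not pass the test.

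A list of 52 further genes of the plasminogen and coagulation system, also chosen with earlier results of these data known, was read beside the 9. Of these, 20 had at most 3 counts in every library, among them plasminogen itself (Plg) and the fibrinogen chains Fga, Fgb and Fgg, and 28 were tested for the knockdown in each state. At the basal level 4 of these were higher and 2 lower, and after TNF-α 5 were higher, where 10.2% and 16.2% of all genes tested were called in either direction. Among those higher, F5 at the basal level and Serpinc1 after TNF-α passed the filter on low counts only through the GSTM1 KD libraries. Leaving out either GSTM1 KD library of a state left 0 of the list called there, and leaving out replicate 2 of control KD gave 12 and 13. The median log2 fold change of the tested genes was -0.0407 and 0.089 against -0.00203 and -0.0106 over all genes tested.

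Tfpi, which inhibits the tissue factor complex, and Procr, the protein C receptor, were lower at the basal level, by 1.66 and 1.57 on the log2 scale from 6.15 and 3.02 CPM in control KD astrocytes. After TNF-α they differed by -1.15 (adjusted p = 0.051, edgeR) and -1.23 (adjusted p = 0.0871, edgeR), which missed the threshold.

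Among the genes that were higher in GSTM1 KD astrocytes, Serpini1 (neuroserpin), an inhibitor of tissue plasminogen activator in the nervous system, was at 3.53 and 2.97 CPM in basal control KD and 13.3 and 15.2 CPM in basal GSTM1 KD libraries. It differed by 2.12 (adjusted p = 0.016, edgeR) at the basal level and by 2.67 (adjusted p = 0.00981, edgeR) after TNF-α. Serpinb8 was higher by 1.25 and 1.83, and Lrpap1, a chaperone of the clearance receptor Lrp1, by 0.79 and 0.78. Lrp1 itself was higher by 0.47 after TNF-α (adjusted p = 0.047, edgeR), a call lost with all 8 libraries in the fit (adjusted p = 0.0529) and without replicate 1 of control KD (adjusted p = 0.0503). F5, a coagulation cofactor, had 8 and 5 counts in basal control KD and 21 and 22 in basal GSTM1 KD libraries. It passed the filter on low counts only through the latter, and was not tested with at least 10 counts in every library. At the basal level it was called higher by 2.21. That call was lost without replicate 1 of control KD (adjusted p = 0.0658, edgeR), and DESeq2 gave F5 no adjusted p. Serpinc1 (antithrombin) had 3 and 7 counts in TNF-α-stimulated control KD and 56 and 27 in TNF-α-stimulated GSTM1 KD libraries. It too passed the filter only through the latter, and was not tested with at least 10 counts in every library. After TNF-α it was called higher by 2.96. That value was 2.27 and 3.93 without replicate 1 and replicate 2 of control KD, and the call was lost with length offsets (2.1, adjusted p = 0.0966, edgeR) and with all 8 libraries (adjusted p = 0.0521). No gene of the list was called in the responses to TNF-α by DESeq2 or by edgeR with the filter on low counts and no replicate block. At an unadjusted p under 0.05 there were 4 of 30 in control KD and 1 of 30 in GSTM1 KD astrocytes, beside 12.5% and 10.9% of all genes.

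**Figure D5:**
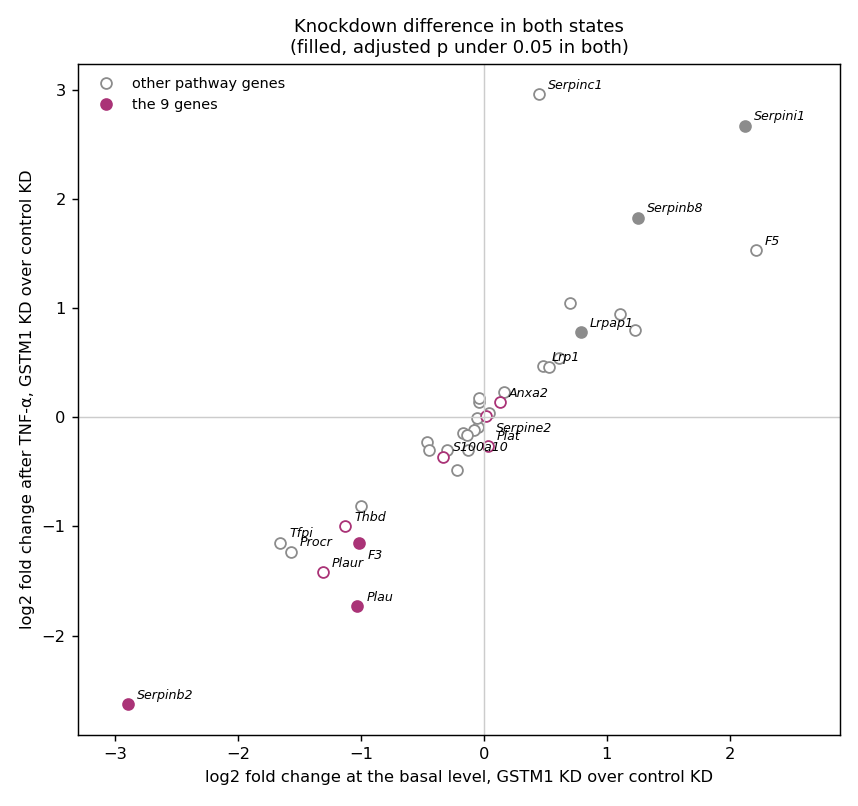
Log2 fold change of GSTM1 KD over control KD at the basal level (x axis) and after TNF-α (y axis) for the 9 genes and the tested genes of the wider list, filled where the adjusted p was under 0.05 in both states. Plau, Serpinb2 and F3 are filled at the lower left, and Serpini1, Serpinb8 and Lrpap1 at the upper right.

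Across the 8 libraries, the gene with the log2 CPM pattern most like a member was sought for 8 of the 9 among 11228 genes with a mean of at least 5 CPM. It was Slc22a21 for Plau (Pearson r = 0.9866), Cd82 for Plat (0.9665), Slc1a3 for Serpine2 (0.9843), Gss for Serpinb2 (0.995), Rtn4ip1 for F3 (0.9985), Mical2 for Thbd (0.9892), Gstm5 for Anxa2 (0.9914) and Zfp729a for S100a10 (0.9926). Among the members, Plaur and S100a10 were the closest pair (r = 0.98), and Anxa2 and S100a10, the partners of one complex, ran in opposite directions (r = -0.88). These values describe 8 libraries that share 4 groups and are given without a test.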

How the data were processed

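Per the submitters' processing notes, the authors used STAR (version 2.5.4b) on GRCm38 and then RSEM (version 1.3.0). Expected counts, as the authors deposited them, estimate the fragments of a gene without normalization. The deposited TPM values and effective lengths (in bases, an other unit) are RSEM's too. Here expected counts were rounded to whole numbers, genes were filtered with filterByExpr, and edgeR (version 4.0.16, R version 4.3.3) gave TMM-scaled CPM and the quasi-likelihood test on all genes, with Benjamini-Hochberg adjustment at 0.05. The knockdown was compared on the 4 libraries of each state, and the responses and their difference on all 8. DESeq2 (version 1.42.0), other scalings, filters, length offsets, a replicate block and leaving out each library were alternatives. All 9 members are named, with genes of the wider list past the threshold (up to 6 in each direction with the smallest p) and the most alike gene of 8 members. The members and lists were chosen with earlier results of these data known. A gene of the wider list is not reported here, and the list's counts leave it out. Totals of 17349682 to 34434615 limit the precision of low genes such as Serpinb2.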

Additional observations from a re-analysis of the deposited data

How the results depend on the processing

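The calls of members at the basal level moved from 3 to 5 with DESeq2 and without the filter on low counts, and to 6 with all 8 libraries and with the replicate block. The members that passed there and not in the fit reported were Plaur and Thbd, and S100a10 in the last 2. With the block their adjusted p (edgeR) was 0.00167, 0.00225 and 0.0325. The calls of the response in control KD astrocytes moved from 1 to 2 with DESeq2, without the filter and with the replicate block, each adding Plat (adjusted p = 0.034 by edgeR with the block), and those in GSTM1 KD astrocytes from 1 to 2 without the filter and with only the 4 libraries compared. After TNF-α the members called were 5, 4 with effective length offsets (Thbd at adjusted p = 0.0513, edgeR) and 6 with the replicate block, with all 8 libraries and without the filter, the gene added being S100a10 in each (adjusted p = 0.031 with the block, edgeR). Of the wider list, the calls moved from 6 to 13 without the filter and to 14 with the block at the basal level, and from 5 to 14 with each after stimulation, with 8 by DESeq2, and 5 genes were called in the control KD response and 0 in the GSTM1 KD response without the filter, and 2 and 0 with the block. Replicate numbers are not said to pair the libraries. Deviations of replicates from their group means correlated at 0.824 between the control KD groups and 0.617 between the GSTM1 KD groups over 11234 genes, and at 0.279 to 0.409 between the others. Over all genes, the block gave 4712 calls where 1524 were made at the basal level, 4302 where 2360 were made with TNF-α, and 988 against 403 and 808 against 406 in the responses. Without the filter there were 3957, 4540, 1255 and 1050 calls, and 134 for the difference of responses. DESeq2 gave 2492 at the basal level, 742 and 630 in the responses and 27 for the difference. All 8 libraries gave 2762 at the basal level, and fits to only the 4 libraries compared gave 72 and 691 in the responses. The cause of these shifts was not tested.

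Leaving out a library gave 0 to 6 members at the basal level, 0 to 6 after TNF-α and 1 to 2 in the control KD response, while the calls over all genes ran from 1 to 5256, from 0 to 5028 and from 180 to 313. Under the other settings, small values changed sign. Serpine2 became -0.0065 at the basal level without the filter. Anxa2 in the control KD response became 0.0029 with DESeq2, 0.00042 with its size factors, 0.011 with at least 10 counts in every library and 0.0019 with 4 libraries, and -0.022 in the GSTM1 KD response with library size only. The difference of responses of Serpine2 became -0.005 with DESeq2, -0.0026 with its size factors, -0.00017 with library size only, -0.013 with at least 10 counts and -0.0051 with length offsets, and that of S100a10 became 0.0022 without the filter. Leaving out a library also turned signs, with ranges of -0.22 to 0.31 for Plat and -0.14 to 0.19 for Serpine2 at the basal level, -0.22 to 0.28 for Serpine2 after TNF-α, -0.19 to 0.3 for Serpine2, -0.13 to 0.1 for Thbd and -0.082 to 0.078 for Anxa2 in the control KD response, and -0.2 to 0.54 for Thbd in the GSTM1 KD response. For the difference of responses the ranges were -0.44 to 0.29 for Plaur, -0.21 to 0.27 for Serpine2, -0.36 to 1.18 for Serpinb2, -0.36 to 0.1 for F3, -0.18 to 0.55 for Thbd, -0.053 to 0.1 for Anxa2 and -0.091 to 0.067 for S100a10. The knockdown differences of Plau, Plaur, Serpinb2, F3 and Thbd kept their sign in both states under every setting run.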
